A study of Culter alburnus with 9 samples.

Results

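Matrix Gla protein (mgp, locus ABG768_020721) and osteocalcin (bglap, locus ABG768_020722) are neighbouring genes on chromosome 3 of Culter alburnus. They were chosen by locus with their levels by genotype in these libraries already known, and they are 2 of the 29791 loci in the table. The levels below are therefore a description, with no p-value for either gene. RNA from dissected muscle and myosepta, the connective tissue sheets in which intermuscular bones form, was sequenced from 9 fish aged 2 months, with 1 fish per library. The groups were heterozygous runx2b mutants (He, n = 3), homozygous runx2b mutants (Ho, n = 3) and wild-type fish (Ctrl, n = 3). All 9 were F1 offspring of CRISPR/Cas9-edited founders with the same type of mutation, and they had been picked for similar body size and for a bone phenotype typical of the genotype. Library totals ran from 15869087 to 21009448 counts.

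Both genes encode small secreted proteins in which a vitamin K-dependent carboxylase turns glutamate into gamma-carboxyglutamate (Gla), a residue that binds calcium and mineral. In mammals, matrix Gla protein is made by chondrocytes and vascular smooth muscle cells and is known as an inhibitor of calcification. Osteocalcin is made by osteoblasts, accumulates in mineralized bone, and in mammals is a known target of the transcription factor RUNX2.

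On the C. alburnus assembly the mgp locus covers chromosome 3, positions 76026013 to 76033414, and bglap covers 76034074 to 76035529, so 659 bases lie between them. The listed transcript lengths are 1624 bases for mgp and 467 bases for bglap. A second osteocalcin locus (ABG768_023550), described in the file as Osteocalcin 2 and called osteocalcin 2 here, lies on chromosome 6 at 1232550 to 1234406, with a listed length of 528 bases. It was taken up after its values were seen. The estimated counts of these 3 loci were whole numbers in 9 of 9 libraries. The edited gene, runx2b (ABG768_014534, chromosome 20), had 0, 8 and 3 counts in the He fish, 11, 5 and 2 in the Ho fish and 11, 27 and 0 in the Ctrl fish. These counts are few and hold no sequence, so they cannot check the genotypes, which the authors assigned by Sanger sequencing.

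The transcript of mgp was scarce in the He fish. It had 50, 175 and 103 counts in He 1, He 2 and He 3, 442, 166 and 301 counts in Ho 1, Ho 2 and Ho 3, and 420, 363 and 415 counts in Ctrl 1, Ctrl 2 and Ctrl 3. The highest He fish, He 2, had an exact 95% Poisson interval of 150 to 203 counts, apart from that of the lowest Ctrl fish, Ctrl 2, at 327 to 402 counts. It overlapped with that of Ho 2, at 142 to 193 counts. These intervals cover counting error only. In TPM, a unit corrected for transcript length, mgp stood at 1.88, 6.09 and 4.27 in the He fish, 17.22, 7.27 and 13.91 in the Ho fish and 18.3, 17.94 and 20.07 in the Ctrl fish. In TPM all 3 He fish lay below every Ho and every Ctrl fish, but the gap between He 2 and Ho 2 is within counting error and their raw counts have the opposite order. In whole tissue, fewer cells of a type and less RNA per cell cannot be told apart. Within the Ho group, Ho 2 lay next to the He fish and Ho 1 next to the Ctrl fish.

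To compare the genotypes, counts were scaled to library size (CPM) with TMM factors, which correct for a few abundant muscle genes taking a different share of each library. On this scale mgp averaged 5.94 ± 2.15 CPM in He fish, 17.8 ± 7.39 CPM in Ho fish and 21.9 ± 7.80 CPM in Ctrl fish (SD, n = 3 each). The log2 fold change from edgeR was -1.87 (SE 0.42) in He against Ctrl, a level 3.67-fold lower in He. In Ho against He it was 1.58 (SE 0.41), a level 2.99-fold higher in Ho. In Ho against Ctrl it was -0.30 (SE 0.40), less than its standard error, and the fish overlapped, where 5.92% of tested genes lay higher and 5.32% lower without overlap. The 3 He fish did not overlap with the 3 Ctrl fish, as was the case for 8.32% of all tested genes in that direction. They did not overlap with the 3 Ho fish either, which 6.03% of tested genes shared in that direction and 6.23% in the opposite one. Both together, the He fish below both other groups, held for 2.22% of tested genes. The order of the mean log2 CPM, He below Ho below Ctrl, was that of 21.7% of tested genes.

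**Figure D1:**
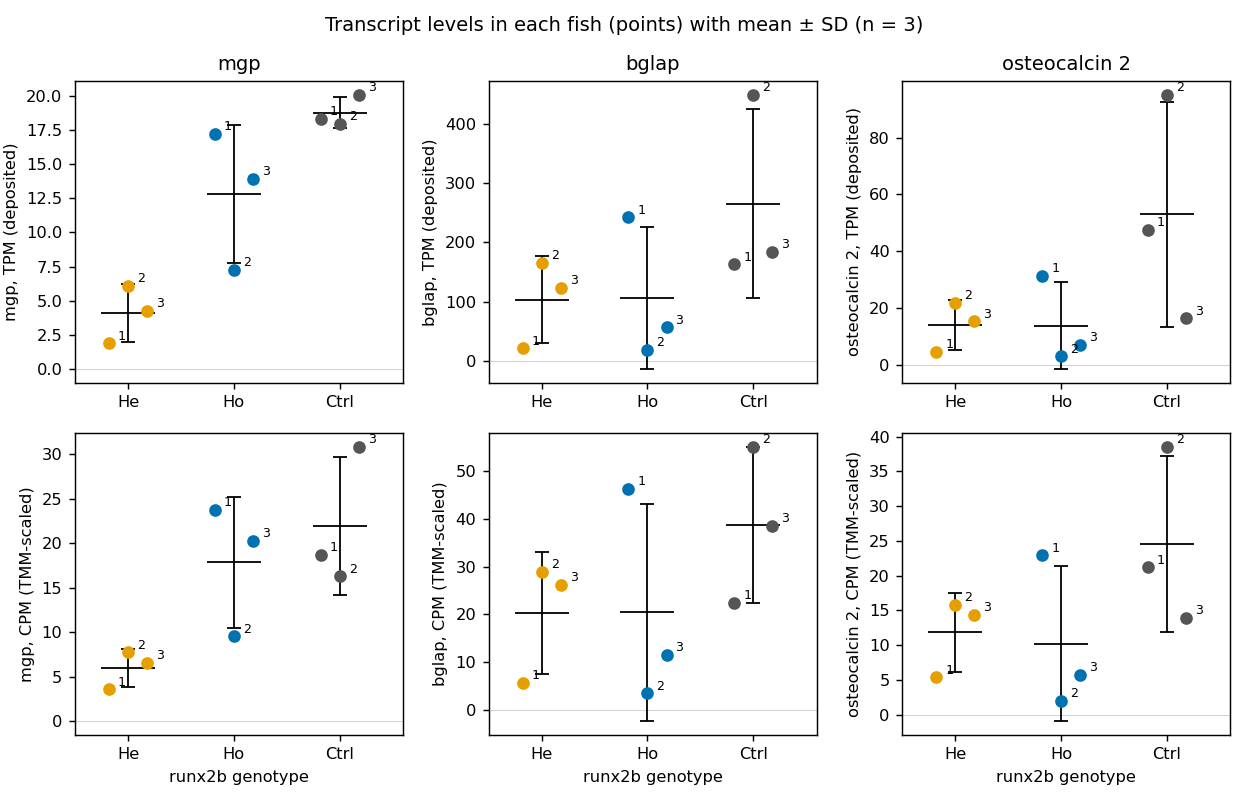
Levels of mgp, bglap and osteocalcin 2 in each fish (points, numbered by replicate) with mean ± SD (black, n = 3 per genotype), in deposited TPM (top) and TMM-scaled CPM (bottom), each panel with its own vertical axis. For mgp the 3 He fish lie between 1.88 and 6.09 TPM, below all Ho and Ctrl fish, while the groups of bglap and osteocalcin 2 overlap on both scales.

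The TPM and CPM scales disagreed on how mgp in Ho stood to Ctrl. In TPM all 3 Ho fish lay below all 3 Ctrl fish (highest 17.22 in Ho, lowest 17.94 in Ctrl), whereas in CPM Ho 1 and Ho 3, at 23.7 and 20.2 CPM, lay above Ctrl 1 and Ctrl 2, at 18.7 and 16.3 CPM. Lower TPM in all Ho than in all Ctrl fish was found for 10.2% of tested genes, against 2.1% with higher TPM, so in TPM the genes as a whole leaned to lower values in Ho. The Ctrl fish were even in TPM, with a coefficient of variation of 6.07%, and less even in CPM, at 35.6%. In Ho against He, 7.67% of tested genes had higher TPM in all Ho fish and 2.07% lower. In He against Ctrl every scale placed mgp lower in He, and 15.6% of tested genes had lower TPM in all He than in all Ctrl fish, against 0.861% with higher TPM. With library totals alone as the scale, the median of all tested genes moved to -0.41 in He against Ctrl and mgp to -2.13, which is -1.72 relative to that median. On log2(TPM + 1) the median gene stood at -0.28 and mgp at -2.05, or -1.78 relative to it.

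Osteocalcin was more abundant than mgp and far more variable between fish. It had 79, 657 and 412 counts in He 1, He 2 and He 3, 864, 59 and 171 in Ho 1, Ho 2 and Ho 3, and 503, 1231 and 519 in Ctrl 1, Ctrl 2 and Ctrl 3. The bglap level was 22.19, 165.81 and 123.33 TPM in the He fish, 242, 18.98 and 57.49 TPM in the Ho fish and 163.52, 448.47 and 183.84 TPM in the Ctrl fish. The lowest fish were Ho 2 and He 1 and the highest were Ctrl 2 and Ho 1, so that the Ho group held both high and low fish. Among all 29791 loci bglap ranked by TPM between 286 and 948 in He fish, between 263 and 1430 in Ho fish and between 217 and 374 in Ctrl fish. The ranks of mgp were 3584 to 6129 in He fish, 1493 to 3142 in Ho fish and 1197 to 1778 in Ctrl fish.

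The mean bglap level was 20.3 ± 12.8 CPM in He fish, 20.4 ± 22.8 CPM in Ho fish and 38.7 ± 16.4 CPM in Ctrl fish (SD, n = 3 each). Log2 fold changes were -0.93 (SE 0.89) in He against Ctrl, -0.92 (SE 0.89) in Ho against Ctrl and 0.01 (SE 0.88) in Ho against He. These are about as large as their standard errors or smaller. On log2(TPM + 1) with limma the bglap values were larger, at -1.61 (SE 0.99) in He against Ctrl and -1.86 (SE 0.99) in Ho against Ctrl, where the median of all tested genes stood at -0.28 and -0.20, and -0.25 (SE 0.99) in Ho against He. On both scales the genotypes overlapped in all 3 comparisons. The Ho fish ranged 13.7-fold in CPM, the He fish 5.16-fold and the Ctrl fish 2.47-fold. Ho 1 weighed heavily in the Ho value. Without Ho 1 the bglap log2 fold change was -2.38 in Ho against Ctrl and -1.47 in Ho against He. Transcript of bglap was counted in all 9 fish, and the lowest count was 59 (Ho 2, exact 95% Poisson interval 44.9 to 76.1).

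The spread between fish of one genotype was wide for both genes. Pooled over the 3 genotypes, the SD of log2 CPM was 0.59 for mgp and 1.37 for bglap, against a median of 0.33 over 6653 genes with at least 5 CPM on average. Of those genes, 84.7% had a smaller SD than mgp and 97.5% a smaller SD than bglap.

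**Figure D2:**
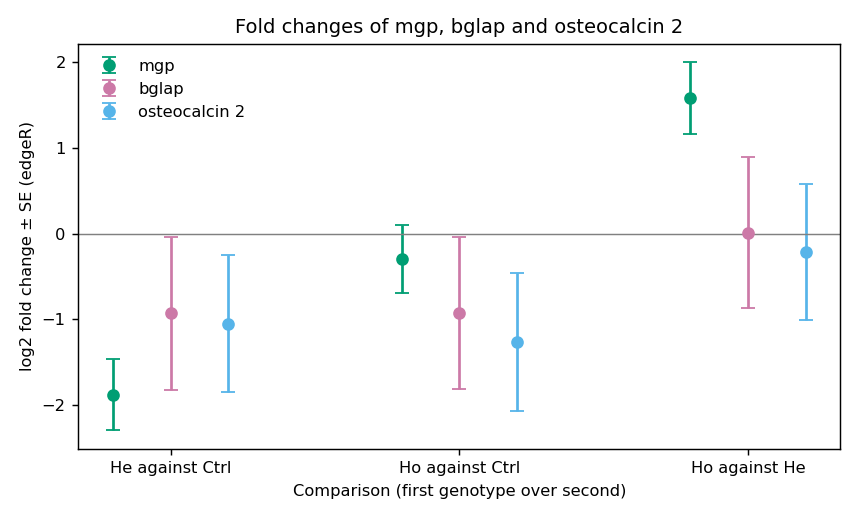
Log2 fold changes from edgeR with standard errors (bars) for mgp, bglap and osteocalcin 2 in each of the 3 comparisons, the first genotype over the second. The points of mgp lie at -1.87 (SE 0.42) in He against Ctrl and 1.58 (SE 0.41) in Ho against He. Those of bglap lie at -0.93 (SE 0.89) and 0.01 (SE 0.88). Because mgp and bglap were chosen with their levels known, their distances from 0 are a description and no test.

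Level for level, bglap exceeded mgp in all 9 fish. The ratio of bglap to mgp TPM was 11.8, 27.2 and 28.9 in the He fish, 14.1, 2.61 and 4.13 in the Ho fish and 8.94, 25 and 9.16 in the Ctrl fish. On the log2 scale the difference of the genes averaged 4.39 ± 0.72 in He, 2.41 ± 1.26 in Ho and 3.67 ± 0.85 in Ctrl (SD, n = 3 each). Ho 2 and Ho 3 had the smallest ratios of the 9 fish, and every pair of genotypes overlapped. The size of the ratio depended on the length used. The deposited TPM were 1.71 to 1.85 times what the counts and the listed length give for bglap, but 0.813 to 0.874 times for mgp. From counts and listed lengths the ratio was 5.49, 13.1 and 13.9 in He, 6.80, 1.24 and 1.98 in Ho and 4.16, 11.8 and 4.35 in Ctrl. The order of the 9 fish was the same by both measures, and bglap stayed above mgp in each. By listed length the excess in Ho 2, from 59 bglap and 166 mgp counts, is within counting error. Divided by length, their exact 95% Poisson intervals, 44.9 to 76.1 and 142 to 193 counts, overlap.

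**Figure D3:**
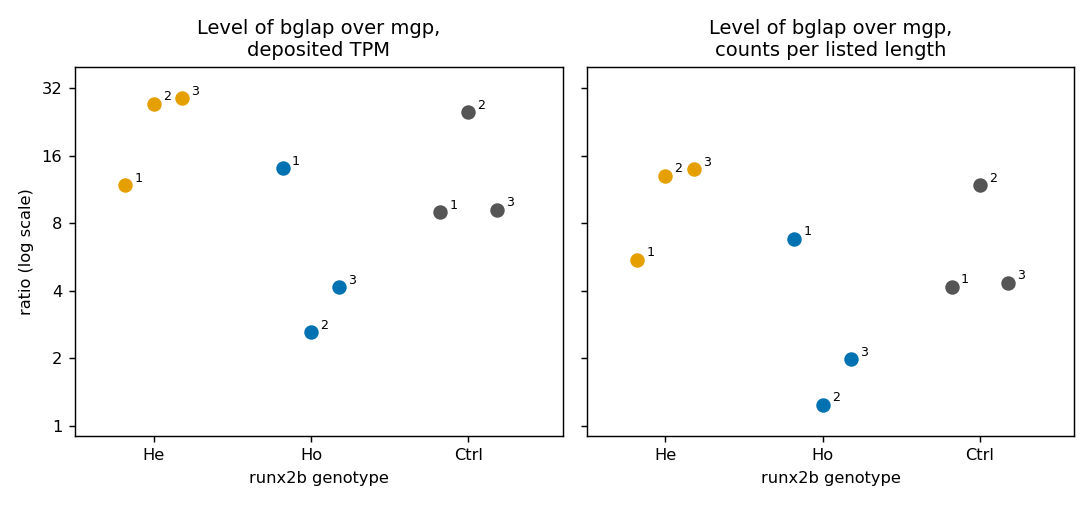
Ratio of the bglap level to the mgp level in each fish (points, numbered by replicate, log axis), from deposited TPM (left) and from counts divided by the listed length (right). Ho 2 and Ho 3 lie lowest in both panels, at 2.61 and 4.13 by TPM, and He 2 and He 3 lie highest.

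In CPM, osteocalcin 2 and bglap had nearly the same order of fish although the loci are on different chromosomes. Osteocalcin 2 had 76, 359 and 226 counts in He 1, He 2 and He 3, 427, 35 and 86 in Ho 1, Ho 2 and Ho 3, and 477, 860 and 188 in Ctrl 1, Ctrl 2 and Ctrl 3. As for bglap, Ho 2 and He 1 were the lowest fish and Ctrl 2 the highest. Ho 1 came next after Ctrl 2 in CPM, at 22.9 CPM beside 21.2 CPM in Ctrl 1, but lay below Ctrl 1 in counts. Over the 9 fish the log2 CPM of the 2 osteocalcin loci had a Pearson correlation of 0.94 and a Spearman correlation of 0.85, given as a description. Leaving out He 1 and Ho 2, the fish farthest from the median of bglap, gave a Pearson correlation of 0.86, and deviations from the genotype means gave 0.93. Among 6652 tested genes with at least 5 CPM on average, osteocalcin 2 was the gene most like bglap. How reads were divided between the 2 osteocalcin loci was not measured.

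Osteocalcin 2 averaged 11.9 ± 5.65 CPM in He, 10.2 ± 11.1 CPM in Ho and 24.6 ± 12.6 CPM in Ctrl (SD, n = 3 each). Its log2 fold changes were -1.05 (SE 0.80) in He against Ctrl, -1.26 (SE 0.80) in Ho against Ctrl and -0.21 (SE 0.79) in Ho against He. None passed edgeR's quasi-likelihood test, with adjusted p of 0.673, 0.838 and 0.973, and the groups overlapped in all 3 comparisons. Without Ho 1 the value in Ho against Ctrl was -2.67. Its deposited TPM were 0.426 to 0.636 times what counts and listed length give, most in Ctrl 1 and Ctrl 2, so its TPM are not set against those of bglap here.

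The neighbours mgp and bglap were less alike. Their log2 CPM had a Pearson correlation of 0.53 and a Spearman correlation of 0.43 over the 9 fish, and 0.45 (Pearson) without He 1 and He 3, the fish farthest from the median of mgp. Measured as deviations from the genotype means, the correlation was 0.79. In CPM, He 2 and Ho 1 had the most of both genes within their genotypes and He 1 and Ho 2 the least of both. In Ctrl, Ctrl 2 had the most bglap and the least mgp. In the order of genes most correlated with mgp, bglap ranked 507 of 6652.

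**Figure D4:**
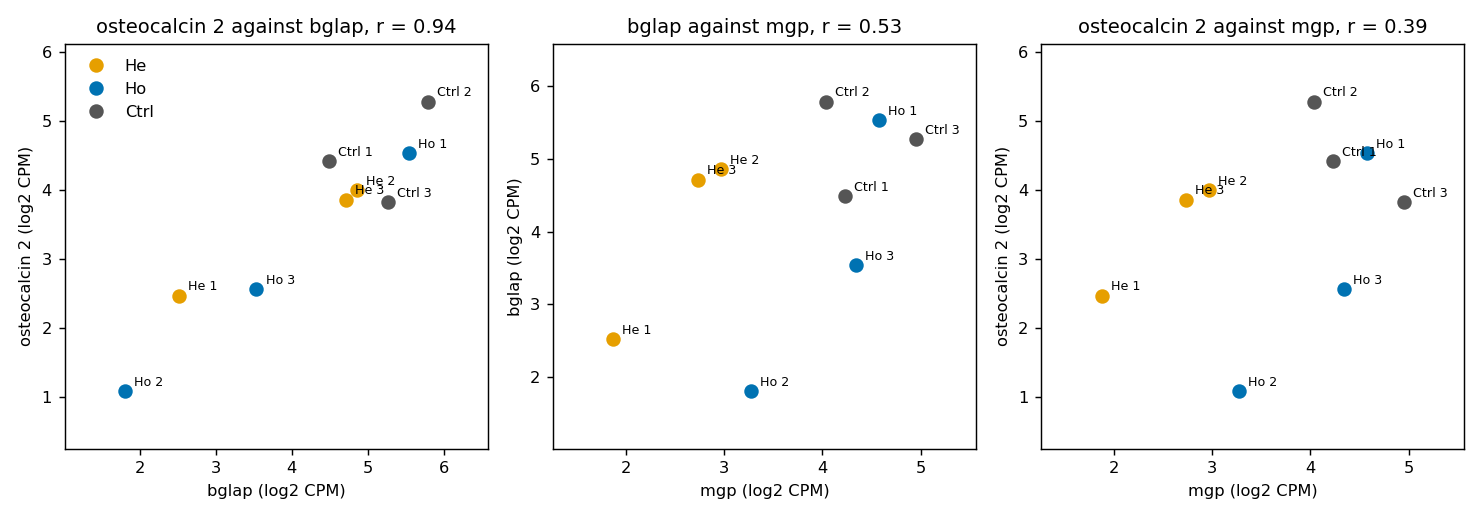
Log2 CPM of the 9 fish (points, coloured by genotype) for each pair of bglap, mgp and osteocalcin 2, with the Pearson correlation. The pair of osteocalcin loci lies along a line (r = 0.94), whereas in the panel of bglap against mgp (r = 0.53) He 2 and He 3 have bglap near that of the Ctrl fish and less mgp.

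By the same measure the genes most like mgp were PAQR6 (ABG768_009194, 0.943), a membrane progestin receptor, and Wwp2 (ABG768_018490, 0.892), a ubiquitin ligase. The next were CHL1 (ABG768_024334, 0.889), a neural cell adhesion molecule, AKAP9 (ABG768_012396, 0.886), an anchor of protein kinase A, and Afg3l2 (ABG768_012926, 0.879), a mitochondrial protease. For bglap, osteocalcin 2 was followed by COL4A2 (ABG768_027826, 0.90), a basement membrane collagen, and Med1 (ABG768_004494, 0.885), a Mediator subunit. Then came letm1 (ABG768_005951, 0.881), a mitochondrial ion exchanger, and SGCE (ABG768_011803, 0.878), a sarcoglycan. Over the 9 fish, the genes of a fish share its library, depth and dissection, and no gene stood on both lists. The named genes are the highest of 6652 correlations over only 9 fish and are given as a description. For each member 1 gene lay over 0.9, PAQR6 for mgp and osteocalcin 2 for bglap.

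Of the 5 loci on each side of the pair, 4 had enough counts to be tested. Closest of these was Cd9 (ABG768_020718, chromosome 3, 76002741 to 76009198), a tetraspanin of the cell membrane. It had 18, 40 and 20 counts in the He fish, 59, 141 and 35 in the Ho fish and 89, 116 and 31 in the Ctrl fish. Its log2 fold changes were -1.40 (SE 0.49) in He against Ctrl and 1.65 (SE 0.49) in Ho against He, and neither passed edgeR (adjusted p = 0.388 and 0.730). On the other side, wbp11 (ABG768_020725), a splicing factor, and DDX47 (ABG768_020726), an RNA helicase, had log2 fold changes of 0.06 and 0.12 in He against Ctrl. The remaining tested locus, rsbn1l, follows by number but lies on chromosome 4.

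Across all genes, edgeR passed 0 of 14755 tested genes at an adjusted p under 0.05 in each of the 3 comparisons, with 1540 at an unadjusted p under 0.05 in He against Ctrl, 959 in Ho against Ctrl and 1002 in Ho against He. Of all tested genes, 3.59% lay higher and 2.91% lower at that p in Ho against Ctrl, and 4.0% and 2.79% in Ho against He. On the same counts DESeq2 passed 0.628% of its genes as higher in He against Ctrl, and 1.19% as lower. In Ho against Ctrl it passed 0.34% as higher and 0.0971% as lower, and in Ho against He 0.092% and 0.0425%. In the lists that follow, no gene passed edgeR in any comparison.

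The loci of the vitamin K cycle and Gla carboxylation, which make the Gla residue, summed to 19.4 to 40.8 TPM in He, 23.6 to 34.0 TPM in Ho and 22.5 to 70.4 TPM in Ctrl. Of the 12 tested, 5 lay above 0 and 7 below in He against Ctrl with a median of -0.09 on the log2 scale, and all 12 lay below 0 in Ho against Ctrl (median -0.28). The median of all tested genes was -0.01 in both comparisons, and DESeq2 passed 0 of the 12. Of all tested genes, 7270 lay above 0 and 7485 below in He against Ctrl, and 7149 and 7606 in Ho against Ctrl. The carboxylase ggcx (ABG768_002433), which modifies mgp and osteocalcin in mammals, stood at 0.39, 1.03 and 0.62 TPM in He, 1.03, 0.77 and 0.95 TPM in Ho and 2.04, 3.02 and 0.73 TPM in Ctrl. For He against Ctrl ggcx had a log2 fold change of -1.02 (SE 0.37, adjusted p = 0.391 from edgeR), with Ctrl 3 inside the range of the He fish. The protease furin (ABG768_024744), which cuts propeptides of many secreted proteins, had a log2 fold change of -1.03 (SE 0.26, adjusted p = 0.730 from edgeR) in Ho against He. In TPM this furin locus averaged 3.79 ± 1.35 in Ho and 3.69 ± 1.14 in He (SD, n = 3 each), so the difference is not seen on that scale, and the other tested furin locus (ABG768_017972) stood at 0.05 (SE 0.30). A locus (ABG768_004200) is named Vkorc1l1 by Swiss-Prot and vitamin K epoxide reductase complex subunit 1, the reductase that recycles vitamin K, by its protein description. It had only 5, 19 and 24 counts in the He fish and 8, 5 and 4 in the Ho fish, so He 1 lay among the Ho fish. Its log2 fold change was -1.44 (SE 0.62, adjusted p = 0.730 from edgeR) in Ho against He. The locus that both sources name vkorc1l1 (ABG768_023435), its paralogue, stood at -0.09 (SE 0.29, adjusted p = 0.968 from edgeR).

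Among the other vitamin K-dependent proteins, 9 loci were tested and 4 lay above 0 and 5 below in He against Ctrl (median -0.50). Of all tested genes, 7270 lay above 0 and 7485 below. At an unadjusted p under 0.05 from edgeR, 4 of the 9 were lower in He and 0 higher, beside 6.3% and 4.13% of all tested genes. Without overlap of the fish, 3 lay lower and 1 higher, beside 8.32% and 6.28%. DESeq2 passed 0 of the 9, where it passed 1.19% of all its genes as lower and 0.628% as higher. The list holds 2 tested copies of ucma, which encodes a Gla-rich protein of cartilage. One copy (ABG768_017946) had 0, 6 and 0 counts in He 1, He 2 and He 3, 15, 0 and 10 in Ho 1, Ho 2 and Ho 3, and 12, 11 and 20 in Ctrl 1, Ctrl 2 and Ctrl 3. The fish without a count, He 1, He 3 and Ho 2, were among the 4 with the least mgp, and its log2 CPM had a Pearson correlation of 0.90 with that of mgp. The exact 95% Poisson interval of a count of 0 reaches 3.69 counts. Its log2 fold change in He against Ctrl was -2.88 (SE 1.27, adjusted p = 0.473 from edgeR).

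The other copy of ucma (ABG768_020950) was more abundant, at 23.53, 60.45 and 112.79 TPM in He, 51.83, 30.08 and 32.74 TPM in Ho and 93.15, 152.32 and 39.21 TPM in Ctrl. It had a log2 fold change of 0.03 (SE 0.50) in He against Ctrl and -0.85 (SE 0.50) in Ho against Ctrl (adjusted p = 0.991 and 0.824 from edgeR). Over the 9 fish this copy had a correlation of 0.71 with bglap and 0.04 with mgp. Without He 1 and Ho 2 the correlation with bglap was 0.40. Other genes of the list did not pass edgeR either. The log2 fold change in He against Ctrl was -0.73 (SE 0.28, adjusted p = 0.408 from edgeR) for gas6 (ABG768_000043), the ligand of TAM receptors, and -1.62 (SE 0.61, adjusted p = 0.396 from edgeR) for one copy of f10 (ABG768_000026), coagulation factor X. A locus that Swiss-Prot names F10 and the protein description calls protein Z (ABG768_019136) stood at 0.12 (SE 0.31, adjusted p = 0.922 from edgeR).

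Of 27 other tested loci for bone matrix and mineral, 10 lay above 0 and 17 below in He against Ctrl (median -0.54). Of all tested genes, 7270 lay above 0 and 7485 below. In Ho against Ctrl the split was 9 and 18 (median -0.46), beside 7149 and 7606 of all tested genes. The most abundant matrix genes had fish orders unlike that of mgp. In He 3, where mgp was at 4.27 TPM, the collagen gene col1a1 (ABG768_019221) stood at 1007 TPM, beside 1006 TPM in Ctrl 2 and 226 TPM in Ctrl 3. Its correlation over the fish was -0.03 with mgp and 0.53 with bglap. For sparc (ABG768_006200), which encodes osteonectin, these correlations were 0.03 and 0.57. The osteoblast transcription factor sp7 (ABG768_024567) was at 0.05, 0.84 and 0.42 TPM in He, 0.54, 0.28 and 0.23 TPM in Ho and 0.83, 2.00 and 0.24 TPM in Ctrl, far under bglap in each fish. Its correlation over the fish was 0.35 with mgp and 0.73 with bglap.

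At an unadjusted p under 0.05, 6 of the 27 were lower in the He fish and 0 were higher, beside 6.3% and 4.13% of all tested genes. They include ankh (ABG768_017476), whose product exports pyrophosphate, an inhibitor of mineral growth, at -1.17 (SE 0.29, adjusted p = 0.359 from edgeR), and scpp1 (ABG768_000723), a secretory calcium-binding phosphoprotein, at -2.51 (SE 0.71, adjusted p = 0.359 from edgeR). DESeq2 passed 1 of the 27 as lower in He, beside 1.19% of all its genes. The locus was dlx3 (ABG768_004244), a homeobox factor of skeletal and epidermal tissue (adjusted p = 0.00583 from DESeq2). Its log2 fold change was -4.88 (SE 1.23, adjusted p = 0.359 from edgeR). It had 1, 5 and 0 counts in He, 3, 15 and 5 in Ho, and 138, 83 and 3 in Ctrl, so that Ctrl 3 lay among the mutants.

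Cartilage is a source of matrix Gla protein in mammals. Of 18 tested cartilage loci, 3 lay above 0 and 15 below in He against Ctrl (median -1.20), and all 18 lay below 0 in Ho against Ctrl (median -0.53). Of all tested genes, 7270 lay above 0 and 7485 below in He against Ctrl, and 7149 and 7606 in Ho against Ctrl. At an unadjusted p under 0.05 from edgeR, 2 of the 18 were lower in He against Ctrl and 0 in Ho against Ctrl. Of all tested genes these shares were 6.3% and 2.91%. DESeq2 passed 0 of the 18 in either comparison. Over the 9 fish the mean log2 CPM of the list had a Pearson correlation of 0.77 with mgp and 0.75 with bglap, against 0.42 and 0.57 for the bone list. The Spearman correlations were 0.53 and 0.72 for the cartilage list and 0.12 and 0.53 for the bone list. On the log2 of summed TPM the Pearson correlations were 0.68 and 0.79 for cartilage and 0.41 and 0.70 for bone. Cartilage was not alone in such values. On the mean log2 CPM the Pearson correlations were 0.82 and 0.64 for the other vitamin K-dependent proteins. They were 0.53 and 0.65 for slow muscle and 0.25 and 0.68 for tendon and myoseptum. The cartilage matrix gene matn3 (ABG768_014530) stood at 0.03, 6.98 and 0.02 TPM in He 1, He 2 and He 3, 3.25, 0.23 and 12.18 TPM in Ho 1, Ho 2 and Ho 3, and 3.62, 6.31 and 14.88 TPM in Ctrl 1, Ctrl 2 and Ctrl 3. Its lowest fish, He 3, He 1 and Ho 2, were also among the 4 with the least mgp, and the correlation was 0.81. He 2 departed from this, with more matn3 than Ctrl 2 and mgp at 6.09 TPM. The related loci matn4 (ABG768_024448) and matn1 (ABG768_011860) had correlations of 0.26 and -0.48 with mgp. Cartilage collagen loci differed in their correlation with mgp. For col2a1 it was 0.75 (ABG768_026679) and -0.14 (ABG768_003216). For col9a1 it was 0.81 (ABG768_005185) and 0.68 (ABG768_005368), for col9a2 0.70 (ABG768_011775) and for col9a3 0.84 (ABG768_016087). For col11a1 it was 0.68 (ABG768_017176), 0.64 (ABG768_012181), 0.44 (ABG768_001375), 0.02 (ABG768_013004) and -0.19 (ABG768_019851). These collagen loci, matn4 and matn1 were picked after their values were seen.

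**Figure D5:**
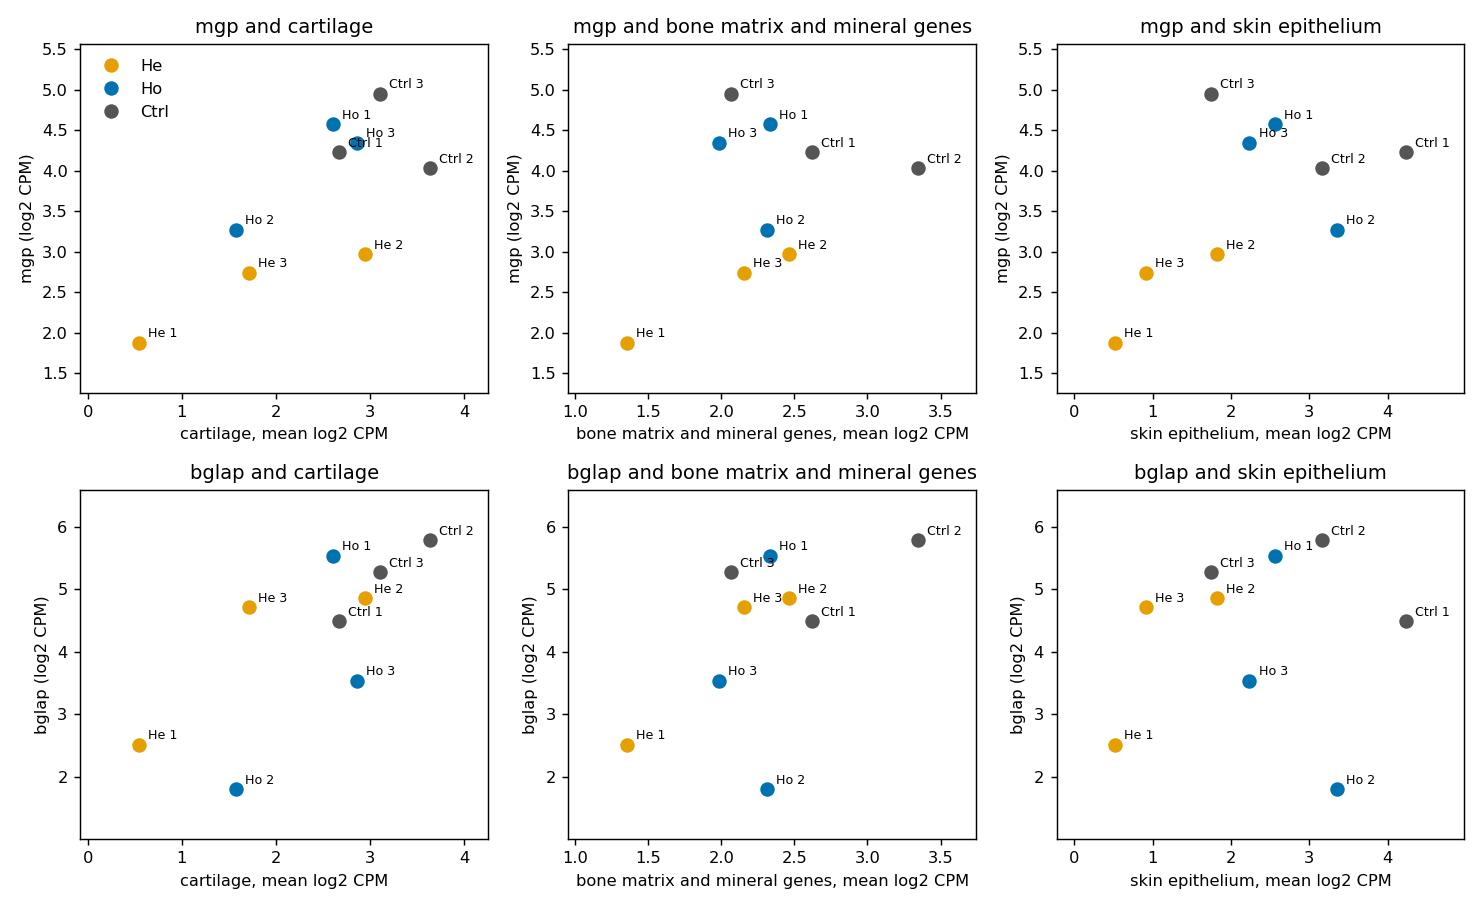
Log2 CPM of mgp (top) and bglap (bottom) in the 9 fish (points, coloured by genotype) against the mean log2 CPM of the tested loci of 3 marker lists, cartilage, bone matrix and mineral, and skin epithelium. He 1 lies lowest of the 9 fish in mgp and in all 3 lists, at 0.54 for cartilage and 0.52 for skin, and Ho 2 lies lowest in bglap.

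The dissected samples differed in their levels of marker RNA. Whether their makeup differed, and the weight of this in the mgp and bglap values, was not tested. Skin epithelium markers (33 tested of 39 loci) summed to 81.2 to 256 TPM in He, 254 to 700 TPM in Ho and 207 to 2092 TPM in Ctrl, and 29 of the 33 lay below 0 in He against Ctrl (median -2.46). DESeq2 passed 17 of these as lower in He and 0 as higher. Of all tested genes, 7485 of 14755 lay below 0, and DESeq2 passed 1.19% as lower and 0.628% as higher. In Ho against He, 31 of the 33 skin loci lay above 0 and 2 below (median 1.86), beside 7588 and 7167 of all tested genes. At an unadjusted p under 0.05 from edgeR, 12 of the 33 were higher in Ho and 0 lower, beside 4.0% and 2.79%. DESeq2 passed 0 of the 33 in Ho against He, beside 0.092% of its genes as higher and 0.0425% as lower. The mean of the skin list had a correlation of 0.55 with mgp and 0.09 with bglap. Markers of vascular smooth muscle and pericytes, cells that make mgp in mammals, summed to 58.6 to 109 TPM in He, 83.2 to 150 TPM in Ho and 82.7 to 202 TPM in Ctrl, with a median log2 fold change of -0.23 over 14 loci in He against Ctrl. Fast muscle markers, those of the labelled tissue, summed to 200106 to 265510 TPM in He, 199938 to 252046 TPM in Ho and 208557 to 261386 TPM in Ctrl. Their mean log2 CPM was 10.67 to 11.20 in He, 10.32 to 10.65 in Ho and 10.15 to 10.54 in Ctrl. This mean had a correlation of -0.57 with mgp and -0.12 with bglap. Of 24 tested fast muscle loci, 20 lay above 0 and 4 below in He against Ctrl.

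The remaining marker lists had these medians of the log2 fold change, He over Ctrl. The value was 0.12 over 29 tendon and myoseptum loci, -0.38 over 4 osteoclast loci, -0.28 over 14 fibroblast loci and -0.02 over 15 vessel endothelium loci. It was -0.58 over 8 pigment cell loci, -0.35 over 28 slow muscle loci, -0.58 over 12 loci of blood and immune cells and 0.41 over 24 fast muscle loci. Known mammalian partners and receptors of matrix Gla protein and osteocalcin had a median of -0.0041 over 9 loci, and the 13 liver loci, none of them tested, summed to at most 0.89 TPM in any fish. DESeq2 passed 3 of the 8 pigment cell loci, 1 of the 29 tendon loci and 1 of the 15 endothelium loci as lower in He than in Ctrl. It passed 1 of the 4 osteoclast loci as higher in Ho than in Ctrl. Over all genes DESeq2 passed 1.19% as lower in He against Ctrl and 0.34% as higher in Ho against Ctrl. In Ho against He the list medians were -0.35 for tendon and myoseptum, 0.01 for osteoclasts, -0.20 for fibroblasts and 0.02 for vessel endothelium. They were 0.13 for pigment cells, -0.02 for slow muscle, 0.65 for blood and immune cells and -0.28 for fast muscle, beside 0.01 for all tested genes.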

How the data were processed

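Muscle and myoseptal RNA of 9 fish was sequenced as paired-end poly(A) libraries. The authors filtered reads, aligned them to the C. alburnus genome and deposited estimated counts, TPM, FPKM and a length per locus. The aligner, the counting tool and the use of strand are not given in the sources used here. Of 29791 loci, 28228 were annotated, all matched by locus tag, and 1563 were assembled from reads. Gene names come from the deposited Swiss-Prot or protein descriptions.

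Counts (94.3% whole) were rounded, filtered with filterByExpr (14755 loci kept), TMM-scaled and fitted with edgeR 4.0.16 (robust quasi-likelihood) in R 4.3.3, with 1 mean per genotype over all 9 libraries. P-values were Benjamini-Hochberg adjusted over all tested loci, and a gene passed under 0.05. The SE of an edgeR log2 fold change was its absolute value divided by the square root of the quasi-likelihood F statistic. For mgp and bglap this SE is a description too. Log2 CPM used a prior count of 2. DESeq2 1.42.0 on the same loci and limma 3.58.1 on log2(TPM + 1) and log2(TPM + 0.1) were alternatives, beside other scalings, no filter, 6 libraries, a replicate block and leaving out each library. The labels do not say that same-numbered fish belong together. P-values weigh the difference of genotype means against the spread between fish, moderated across genes.

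Members and lists were chosen with earlier results of these data known. Named were both members, runx2b, loci of the vitamin K and bone lists, up to 4 most abundant loci of other lists, 5 loci on each side, and the 5 genes most correlated with each member. Any other gene was chosen after its values were seen. Python 3.11.15, pandas 2.3.3, numpy 2.4.6, scipy 1.17.1 and matplotlib 3.10.9 were used.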

Additional observations from a re-analysis of the deposited data

How the results depend on the processing

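In He against Ctrl mgp lay lower in He under every alternative run. Leaving out each library in turn gave -2.10 to -1.53 for mgp in He against Ctrl, -0.56 to 0.03 in Ho against Ctrl and 1.29 to 1.88 in Ho against He. For bglap the same gave -1.27 to -0.47, -2.38 to -0.41 and -1.47 to 0.51, with -2.38 and -1.47 both reached without Ho 1. For osteocalcin 2 it gave -1.31 to -0.56, -2.67 to -0.77 and -1.64 to 0.27, the last changing sign. With the replicate block mgp stood at -1.81, -0.28 and 1.53 and bglap at -0.91, -0.98 and -0.07. Deviations of same-numbered fish had correlations from -0.257 to 0.259. Fish of different numbers were not compared, so these values cannot settle whether the numbers pair the fish. DESeq2 passed 252, 63 and 19 genes in the 3 comparisons where edgeR passed 0, and 8 genes passed with only the 6 libraries of Ho against Ctrl. Without single libraries edgeR passed 0 to 115 genes in He against Ctrl (115 without Ctrl 3), 0 to 7 in Ho against Ctrl and 0 in Ho against He. In the lists DESeq2 passed 1 bone, 1 tendon, 1 endothelium, 17 skin and 3 pigment loci as lower in He against Ctrl, beside 1.19% of all its genes. It passed 1 osteoclast locus as higher in Ho against Ctrl, beside 0.34% of all its genes. The cause of the difference between DESeq2 and edgeR was not tested. In CPM, which is not per length, the log2 difference of bglap and mgp was 0.66, 1.91 and 2.00 in He, 0.97, -1.49 and -0.82 in Ho and 0.26, 1.76 and 0.32 in Ctrl. The correlation of mgp and bglap was 0.64 on log2(TPM + 1), 0.79 on deviations from the genotype means, chosen after seeing the data, and 0.32 to 0.62 without single fish (0.32 without He 1). With 3 fish per genotype, the spread between fish rather than counting error set the precision.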
